A study of Mus musculus with 19 samples.

Results

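The distal microRNA cluster of the imprinted Dlk1-Dio3 domain, which runs from miR-379 to miR-410, was followed through 7 groups of small RNA libraries from mouse brain. Its members were taken by their numbers alone: every listed name carrying 1 of 35 numbers known for this cluster was included, with all arms and letters. This gave 64 of the 528 miRNA names measured, and they formed 32 hairpins, each with both arms listed. No row matched miR-453, miR-654, miR-679, miR-758 or miR-1197. No measured value entered the choice of the members.

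Each library held RNA of 19 to 24 nt bound to the Argonaute protein Ago2, which loads mature miRNAs, from P56 mice. Whole neocortex and whole cerebellum (groups Neocortex and Cerebellum) were precipitated with an antibody to Ago2. The other libraries were precipitated with an antibody to the Myc tag, which recovers Ago2 from the class of neurons named: Camk2a (excitatory), Gad2 (GABAergic), PV and SST from neocortex, and Purkinje from cerebellum. Neocortex, Camk2a, Gad2, Cerebellum and Purkinje had 3 libraries each, and PV and SST had 2 each. PV and SST neurons are GABAergic and belong to the cells that Gad2 marks. The mice were C57BL/6 & BALB/c for Neocortex and Camk2a, C57BL/6 & 129 for Gad2, PV and SST, and C57BL/6 & black swiss for Cerebellum and Purkinje. A library came from 1 tissue in Neocortex, Camk2a and Cerebellum, from 3 pooled tissues in Purkinje and from 4 in Gad2, PV and SST. The driver lines that put the tag into each class are not given in the sources used here. Between a class and its tissue, antibody and cell class changed together, and between neocortex and cerebellum, strain and region changed together, so within each pair the parts cannot be told apart.

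The cluster is transcribed from the maternal chromosome as part of a long noncoding RNA from which the hairpins are cut, and its miRNAs are best known from neurons. In each hairpin 1 arm usually persists in Ago2 as the guide, and its seed, bases 2 to 8, pairs with target messenger RNAs. Transcription factors of the Mef2 family are known to raise the cluster's transcription with neuronal activity, miR-134 is known to limit the size of dendritic spines, and transcripts of the miR-376 hairpins are known substrates of A-to-I RNA editing. On GRCm38 the 32 hairpins lie on the plus strand of chromosome 12 between 109709060 and 109743795, a stretch of 34.7 kb. The last 12 of them overlap the lincRNA gene Mirg (109729764 to 109749460 in GENCODE M21), 8 in an exon and 4 in an intron, and the other 20 are intergenic.

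Mature sequences from RefSeq (GRCm38.p6) were matched to 60 of the 64 members. miR-376c, miR-487b, miR-539-3p and miR-485 had no match. The guides with the highest levels that were matched are shown first, 5′ to 3′ with the seed in capitals, since most of the cluster's reads came from them.
miR-376a: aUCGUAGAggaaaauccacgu
miR-369-3p: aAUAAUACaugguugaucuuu
miR-300: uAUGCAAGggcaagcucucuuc
miR-382: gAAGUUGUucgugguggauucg
miR-381: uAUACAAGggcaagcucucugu
miR-376b: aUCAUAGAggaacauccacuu
miR-154: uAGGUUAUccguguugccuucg
miR-411: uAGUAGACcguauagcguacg
miR-541: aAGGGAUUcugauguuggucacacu
miR-410: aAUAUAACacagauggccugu
All 10 seeds differ. The seeds of miR-300 and miR-381 differ, but the 2 miRNAs share an unbroken run of 16 bases. Among all matched members, 4 seeds were each shared by 2 members: AUGUAAC by miR-379* and miR-411*, GGUAGAC by miR-379 and miR-1193-5p, GGUUGUC by miR-494* and miR-410*, and UGGAUAU by miR-376c* and miR-376b*. miR-376c* and miR-376b* share a run of 18 bases, so reads could be split between them, and their separate values are uncertain.

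A second set is shown because its members share letters that few other miRNAs hold. The letters were not fixed in advance, so the shares given here describe the members and test nothing. The letters ACACGG, searched on the strand of the mature miRNA, occurred in 5 of the 60 matched members (8.33%) and in 7 of the 1679 mature mouse miRNAs in RefSeq (0.417%). The 7 include these 5 members. The capitals mark these letters.
miR-411*: uauguaACACGGuccacuaacc
miR-323-3p: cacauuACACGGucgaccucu
miR-494: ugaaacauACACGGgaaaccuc
miR-485*: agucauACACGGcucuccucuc
miR-154*: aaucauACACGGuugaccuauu
The related letters ACAUGG occurred in 4 members (6.67%), against 1.43% of all mature miRNAs: miR-379*, miR-495, miR-496 and miR-369-3p. A was the first base of 40% of the matched members and of 25.6% of all mature miRNAs. U was the first base of 40% and 40.9%. The 3p arm was the more abundant in 22 of the 32 hairpins and the 5p arm in 10.

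Library depth, recovered from the values, ran from 1229834 to 14249087 miRNA reads, so that 3 reads stood at 0.211 to 2.44 RPM (reads per 1000000 miRNA reads). Markers of vascular cells and microglia were lower in every neuron class than in the tissues. The vascular list (miR-126-3p, miR-126-5p and miR-143, 3 of its 4 miRNAs listed) summed to 7841 to 8178 RPM in Neocortex and 5810 to 6312 in Cerebellum, against 295 to 993 in all class libraries. The microglia and leukocyte list (5 of 5) summed to 405 to 575 RPM in the tissues and 3.26 to 39.9 in the classes. The oligodendrocyte pair (2 of 4) reached 2682 to 3186 RPM in Purkinje, close to the 3278 to 3463 in Cerebellum, and 616 to 1159 in the neocortical classes. The blood list (3 of 3) summed to 1536 to 3766 RPM in the tissues, 1269.9 to 1579 in Purkinje and 42.7 to 345 in the neocortical classes. The neuronal list (miR-124, miR-128, miR-9 and miR-138) was at least 287768 RPM in every library but those of SST, which held 234811 and 236517. In the latter group TMM scaling factors, which compare a library's composition with the others, were 1.53 and 1.42, above the 0.759 to 1.16 of the other 17 libraries.

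All 64 members passed the filter on low values (a deposited value of at least 1 in at least 2 libraries, where 10 equals 1 RPM). Their levels covered a wide range: 9 members averaged at least 1000 RPM over the 7 groups, 15 averaged 100 to 1000, 23 averaged 10 to 100, and 17 averaged under 10. In all 19 libraries 51 members were detected. As a whole the cluster took 3.67, 4.30 and 4.08% of miRNA reads in the 3 Neocortex libraries, 5.75, 6.75 and 5.45% in Camk2a and 6.54, 6.23 and 7.37% in Gad2. PV libraries gave 4.09 and 4.79%, and SST libraries gave 6.24 and 7.38%. In cerebellum it took 1.29, 1.42 and 1.39% of the whole tissue and 3.37, 3.88 and 3.87% of Purkinje. The Cerebellum libraries were lowest and lay apart from all others, whereas Camk2a, Gad2 and SST libraries overlapped at the top. miR-376a made up 26.6% to 50.1% of the cluster's reads outside Cerebellum and 18.3% to 21.8% in it.

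**Figure D1:**
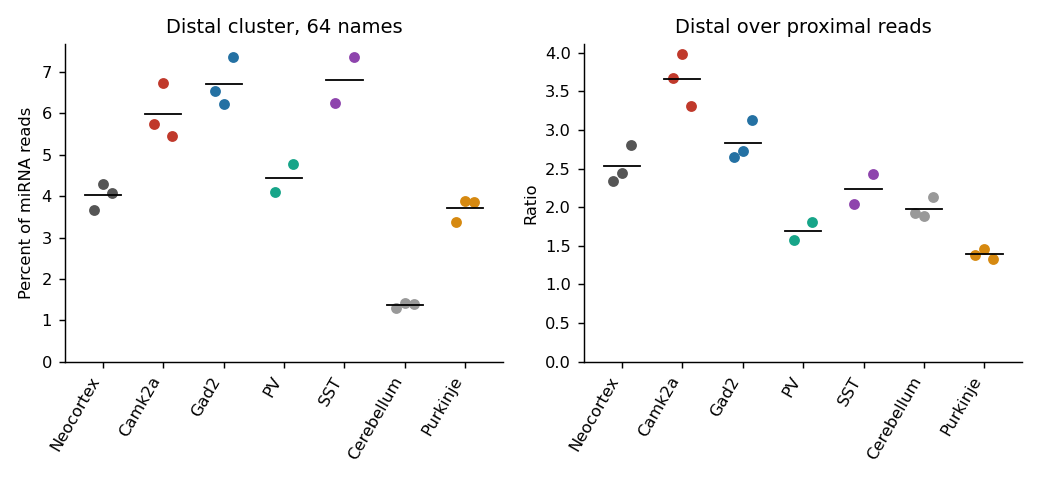
Summed reads of the distal cluster in each library (points) by group, with the group mean as a line: left, percent of all miRNA reads, and right, the ratio to the summed reads of the domain's proximal Meg3 and anti-Rtl1 miRNAs (27 names). The 3 Cerebellum libraries lie lowest on the left, between 1.29% and 1.42%, while on the right Purkinje is lowest, at 1.33 to 1.46, and Camk2a highest, at 3.31 to 3.98.

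Each summed share was compared with an exact two-sided permutation test over libraries, which cannot go below p = 0.1 with 3 against 3 or below 0.3333 with 2 against 2. Libraries did not overlap, and the exact p was 0.1, for Cerebellum below Neocortex (1.37% ± 0.0671 against 4.02% ± 0.317, SD, n = 3), for Purkinje above Cerebellum (3.71% ± 0.290), for Camk2a above Neocortex (5.98% ± 0.678), for Gad2 above Neocortex (6.72% ± 0.589) and for Purkinje below Gad2. Gad2 and Camk2a libraries overlapped (exact permutation p = 0.3). PV lay below SST (4.44% ± 0.492 against 6.81% ± 0.801, SD, n = 2, exact permutation p = 0.3333), but with TMM scaling the difference was 0.0362 percentage points in the other direction. Adjusted over the 7 comparisons by the Benjamini-Hochberg method, the exact p-values were 0.14 and 0.3333, so none passed. Without miR-376a the difference of the summed shares fell from 2.34 to 0.969 percentage points for Purkinje against Cerebellum, and it was -1.63 in place of -2.65 for Cerebellum against Neocortex, -1.37 in place of -2.37 for PV against SST and 0.485 in place of 0.734 for Gad2 against Camk2a. Whether the replicates came from separate animals is not stated, so all p-values measure the spread between these libraries. A lower level in whole tissue cannot be told apart from fewer cells that hold the miRNA.

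Single members were tested with limma on log2 values over all 522 miRNAs that passed the filter, with Benjamini-Hochberg adjustment and calls at an adjusted p under 0.05. By this test 58 of the 64 members differed between some of the 7 groups, where 87.2% of all miRNAs did. Cerebellum held the lowest mean of 43 members, and 41 with TMM scaling. SST held the highest mean of 36, but of 10 with TMM scaling, under which PV held the highest of 19. Highest and lowest groups were not counted over all miRNAs, so whether these counts are particular to the cluster was not tested.

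The 12 most abundant members were followed in every library. Ranks of groups are given in RPM. With TMM scaling SST held the highest mean less often, as given above. miR-376a led in all 7 groups. It reached 13455, 14596 and 10871 RPM in Neocortex, 18343, 23635 and 16134 in Camk2a and 21589, 21106 and 22904 in Gad2. It stood at 13148 and 17549 RPM in PV, 20872 and 29901 in SST, 2358, 3036 and 3037 in Cerebellum and 13603, 16605 and 19401 in Purkinje. Its Cerebellum libraries were far below all others, and Purkinje overlapped the neocortical groups. miR-369-3p, from the hairpin before the last, was next, at 5167, 8818 and 8523 RPM in Neocortex, 12263, 14357 and 10686 in Camk2a and 14991, 13382 and 16221 in Gad2. Its libraries held 7325 and 6704 RPM in PV, 5429 and 8377 in SST, 1595, 1711 and 1696 in Cerebellum and 3595, 4364 and 2994 in Purkinje. Every neocortical library was above every cerebellar one, with Camk2a and Gad2 highest. miR-300 stood at 2999.5, 3274 and 3174 RPM in Neocortex, 5950.3, 6345 and 6164 in Camk2a and 5683, 6069 and 7679.7 in Gad2. It was measured at 4607 and 5211 RPM in PV, 7099.8 and 6666 in SST, 1140.0, 1216 and 1243 in Cerebellum and 2883, 3218 and 2361 in Purkinje. It was about even in Camk2a, Gad2 and SST, and Neocortex lay below all 4 neocortical classes.

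miR-382 was found at 1986, 1306 and 1869.8 RPM in Neocortex, 1190.0, 1549 and 1452 in Camk2a and 4354, 2568 and 3563 in Gad2. Levels were 2106 and 2752 RPM in PV, 3589 and 3223 in SST, 861, 884 and 803 in Cerebellum and 2022, 1829 and 2771 in Purkinje. Camk2a overlapped Neocortex, and every Gad2, PV and SST library was above both. miR-381, the neighbour of miR-300 in sequence, stood at 1678, 1619 and 2091 RPM in Neocortex, 2364, 1939 and 2661 in Camk2a and 2067, 2207 and 2477 in Gad2. The other groups gave 995 and 1158 RPM in PV, 3839 and 3426 in SST, 1857, 2012 and 2220.3 in Cerebellum and 1006, 990.2 and 802 in Purkinje. Here Cerebellum overlapped Neocortex, and PV and Purkinje, which overlap, were the lowest groups, with SST the highest in RPM. miR-487b, the next hairpin, held 1273, 1900.1 and 2376 RPM in Neocortex, 1945, 2832 and 2274 in Camk2a and 3031, 2617 and 3841 in Gad2. It came to 1375 and 2371 RPM in PV, 3575 and 3354 in SST, 631, 648 and 593 in Cerebellum and 387, 477 and 335 in Purkinje. Purkinje libraries were below those of Cerebellum, the reverse of miR-376a. miR-376b, a relative of miR-376a with another seed, reached 886, 1735 and 1438 RPM in Neocortex, 3781, 4692 and 3808 in Camk2a and 2409, 3173 and 3981 in Gad2. It was at 1269 and 1437 RPM in PV, 2329 and 2861 in SST, 289, 309 and 267 in Cerebellum and 782, 917 and 587 in Purkinje. Camk2a and Gad2 overlapped at the top, and PV overlapped Neocortex.

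miR-154 varied least of the 12, with 1393, 1216 and 1289 RPM in Neocortex, 1742, 2107 and 1675 in Camk2a and 1915, 1829 and 2163 in Gad2. Its values were 1958 and 1984 RPM in PV, 2997 and 2703 in SST, 1046, 1158 and 1050.4 in Cerebellum and 2122, 2479 and 2185 in Purkinje. In RPM SST was highest and Cerebellum lowest, with a span of 2.63-fold between group means. miR-411 measured 1779, 1139 and 1162 RPM in Neocortex, 1929, 1764 and 1609 in Camk2a and 1167, 1195 and 1067 in Gad2. It held 646 and 801 RPM in PV, 1524 and 1851 in SST, 492, 416 and 534 in Cerebellum and 1093, 1139 and 1492 in Purkinje. Purkinje overlapped Neocortex and Gad2 for this member, and PV was below both. miR-541 came to 1198, 1407 and 1519 RPM in Neocortex, 309, 462 and 489 in Camk2a and 835, 805 and 1223 in Gad2. Its other levels were 584 and 593 RPM in PV, 2023 and 1684 in SST, 557, 649 and 569.9 in Cerebellum and 564, 446 and 615 in Purkinje. Camk2a had the lowest mean here, below Neocortex in every library, and SST the highest in RPM.

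miR-369-5p, the lesser arm of the miR-369 hairpin, held 629.6, 1026 and 1104 RPM in Neocortex, 803, 956 and 703 in Camk2a and 899, 998 and 1146 in Gad2. It was measured at 545 and 720.4 RPM in PV, 995 and 1257 in SST, 172, 165 and 166 in Cerebellum and 244, 261 and 144 in Purkinje. Neither cerebellar group overlapped a neocortical one. miR-410, the last hairpin, held 215, 285 and 332 RPM in Neocortex, 816, 704 and 742 in Camk2a and 879, 757 and 981 in Gad2. Other groups had 947 and 979 RPM in PV, 1024 and 684 in SST, 89.4, 127 and 100.1 in Cerebellum and 646, 807 and 597 in Purkinje. All neuron classes, Purkinje included, lay above both tissues for this member.

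**Figure D2:**
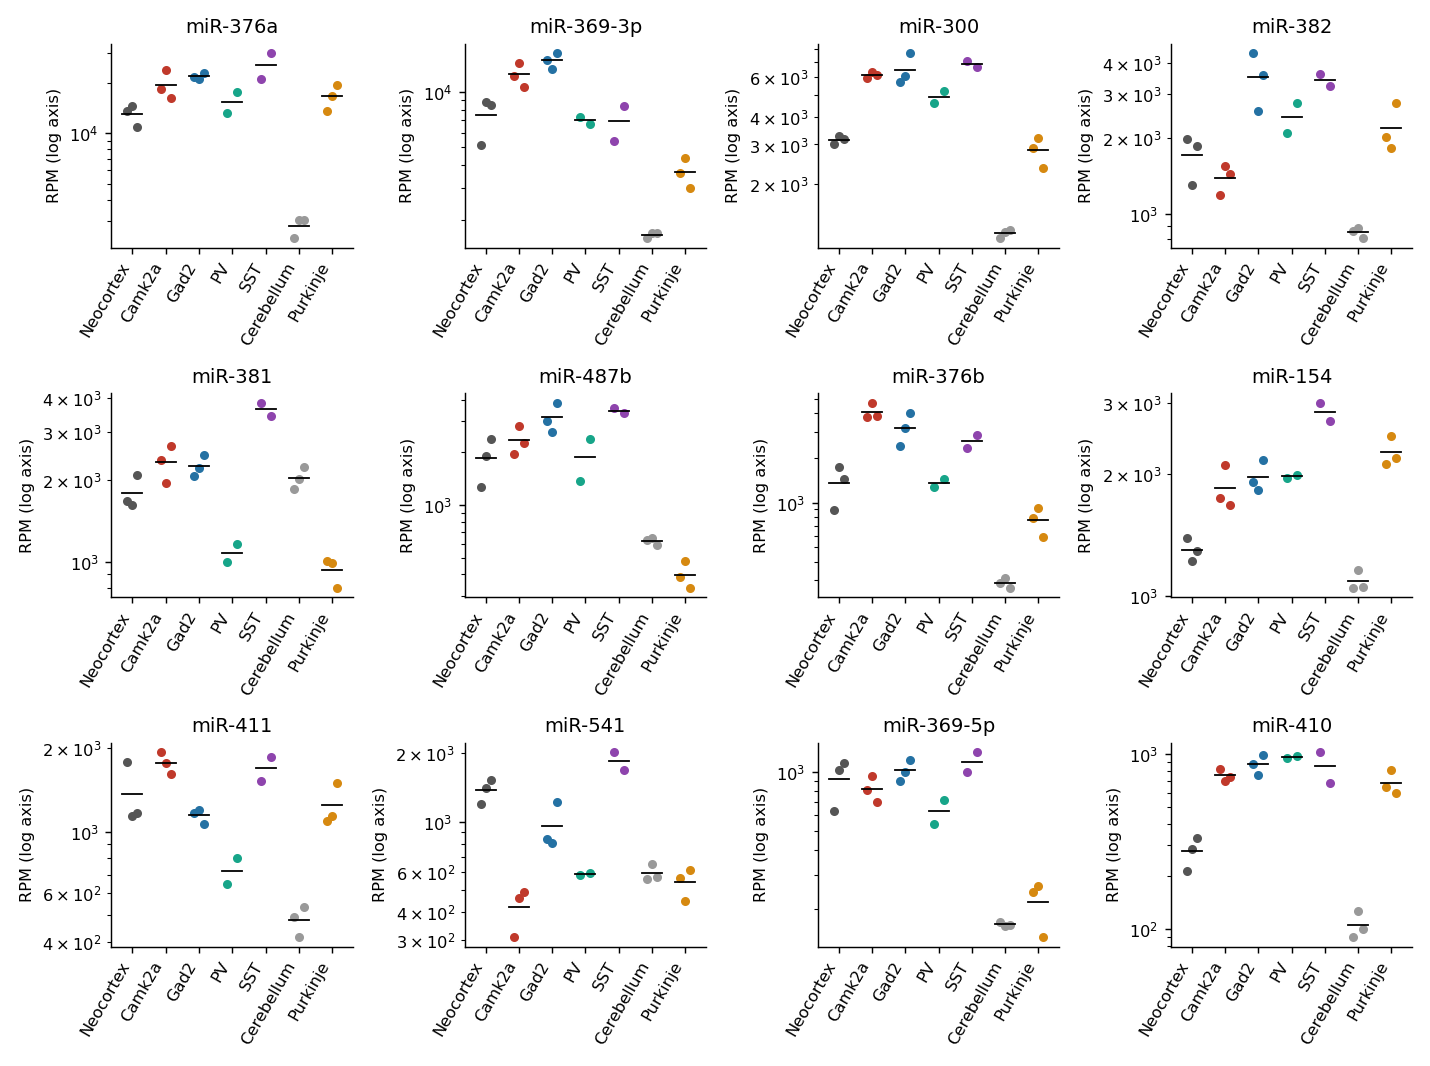
Level of the 12 most abundant members in each library (points; RPM on a log axis, with its own range in each panel) by group, with the group mean as a line. Cerebellum is lowest for most members, but miR-381 and miR-487b are lower in Purkinje than in Cerebellum, and miR-541 is lowest in Camk2a.

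Whole cerebellum was compared with whole neocortex, both precipitated with the same antibody. In Cerebellum 43 of the 64 members were lower and 1 was higher, where 36% of all miRNAs were lower and 19.5% higher. The median log2 difference of the members was -1.39, against -0.40 over all miRNAs, and with TMM scaling these were -1.10 and -0.17. With TMM scaling 38 members were lower and 2 higher, and of the calls over all miRNAs 46.4% were higher. The proximal miRNAs of the domain gave 19 of 27 lower and 0 higher. The ependymal and choroid pair miR-204 and miR-34c (2 of 5 listed) summed to 1315 to 1792 RPM in Cerebellum and 60.8 to 88.2 in Neocortex. The astrocyte list (miR-23a, miR-27a and miR-24, 3 of 3) summed to 2653 to 3444 RPM in Cerebellum and 4911 to 6600 in Neocortex. The part of these cell types was not tested. From here on, fits and folds use the log2(deposited value + 1) scale, on which the change of a low member is understated where every library holds reads, while a library at 0 can enlarge it.

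The member with the largest fall was miR-485, which is the 5p arm and is known to act on synaptic genes. It held 66.1, 68.6 and 78.2 RPM in Neocortex and 2.44, 2.43 and 0 RPM in Cerebellum, which in the latter were 3, 8 and 0 reads (log2 -6.36 ± 0.75 SE, limma adjusted p = 4.41e-07). The groups lay far apart, and the library at 0 allows up to 1.67 RPM. Without that library (Cerebellum replicate 3) the log2 difference was -4.80, and with a pseudocount of 10 it was -4.98. The other arm, miR-485*, stood at 49.3, 56.9 and 57.0 RPM in Neocortex and 47.2, 32.2 and 26.1 RPM in Cerebellum, a smaller difference (log2 -0.67 ± 0.26 SE, limma adjusted p = 0.0325). That call was lost with TMM scaling (log2 -0.38) and without Neocortex 2 or 3 or Cerebellum 2 or 3 (log2 -0.64 to -0.48).

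miR-409-3p fell 7.53-fold, from 312, 297 and 335 RPM to 39.8, 40.7 and 44.5 RPM (log2 -2.91 ± 0.17 SE, limma adjusted p = 2.2e-11), with no overlap. miR-369-5p fell 5.33-fold (log2 -2.42 ± 0.23 SE, limma adjusted p = 2.17e-08). miR-412-5p, from the hairpin between miR-409 and miR-369, fell from 56.3, 39.3 and 45.7 RPM to 8.13, 6.07 and 8.90 RPM (log2 -2.60 ± 0.32 SE, limma adjusted p = 9.24e-07). These 3 members come from neighbouring hairpins at the cluster's distal end. In the same stretch miR-412-3p was not called (log2 -0.50), and miR-410, the last hairpin, fell about as much as the median member (log2 -1.38). miR-495* fell by 2.81 on the log2 scale and miR-376b* by 2.61, both at under 50 RPM in every Neocortex library. The single higher call was miR-299*, at 45.6, 65.9 and 82.9 RPM in Neocortex and 129, 85.3 and 79.0 RPM in Cerebellum (log2 0.60 ± 0.25 SE, limma adjusted p = 0.0482). Its libraries overlapped, and the call was lost without Neocortex 1 or 2 or Cerebellum 1 or 2 (log2 0.37 to 0.68). miR-381 was not called (log2 0.18 ± 0.16 SE, limma adjusted p = 0.334).

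Purkinje neurons, the output cells of the cerebellar cortex, were compared with the whole cerebellum. In Purkinje 43 of the 64 members were higher and 5 lower, where 31.2% of all miRNAs were higher and 37.4% lower. The members' median log2 difference was 1.34, against -0.19 over all miRNAs, and 20 of the 27 proximal miRNAs were higher and 0 lower. Antibody and pooling changed with the class here, while the strain was the same. The vascular, microglial and blood lists summed to lower levels in Purkinje as given above. The ependymal and choroid pair summed to 9.17 to 15.5 RPM in Purkinje, against 1315 to 1792 in Cerebellum, and the astrocyte list to 1673 to 1817 RPM, against 2653 to 3444. The part of these cell types in the differences was not tested.

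The rises described here are the 6 highest among called members that averaged at least 10 RPM in the higher group. Among members below that level, miR-494* (log2 3.11), miR-323-5p (log2 2.89), miR-666-5p (log2 2.79) and miR-666-3p (log2 2.67) were also called and lay in the same range or above it, and were singled out after their values were seen. miR-376a rose 5.86-fold (log2 2.55 ± 0.19 SE, limma adjusted p = 2.38e-10), and its other arm miR-376a* rose 6.36-fold, from 14.6, 13.1 and 7.79 RPM to 69.3, 82.9 and 68.1 RPM (log2 2.67). miR-410 rose 6.48-fold (log2 2.70 ± 0.20 SE, limma adjusted p = 1.9e-10). miR-494 stood at 8.13, 10.0 and 8.34 RPM in Cerebellum and 62.0, 58.5 and 53.6 RPM in Purkinje (log2 2.71 ± 0.32 SE, limma adjusted p = 2.85e-07). The Purkinje values of miR-494 were above those of every other group, where no library passed 20.6 RPM. Both arms of miR-412 rose, miR-412-5p from 8.13, 6.07 and 8.90 RPM to 46.0, 47.2 and 79.0 RPM (log2 2.85) and miR-412-3p from 2.44, 2.13 and 2.22 RPM to 11.6, 18.0 and 10.7 RPM (log2 2.48). miR-485, close to the floor in both groups, was called higher (log2 1.89, limma adjusted p = 0.0316), a call lost without Cerebellum 3 (log2 0.33) or Purkinje 3 (log2 1.54) and with DESeq2 (log2 1.11).

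The 5 members that fell were miR-381, miR-381*, miR-487b, miR-544-5p and miR-668. miR-381 fell 2.18-fold (log2 -1.13 ± 0.16 SE, limma adjusted p = 2.13e-06), and its libraries did not overlap. miR-381* fell by 2.61 on the log2 scale, at under 9 RPM in each Cerebellum library. miR-487b fell 1.58-fold (log2 -0.66 ± 0.23 SE, limma adjusted p = 0.0152), a call that was lost without Purkinje 3 (log2 -0.54) and with edgeR (log2 -0.36). miR-544-5p fell from 22.8, 20.7 and 13.9 RPM to 7.75, 6.81 and 4.74 RPM (log2 -1.55 ± 0.29 SE, limma adjusted p = 9.42e-05). Its partner arm miR-544-3p was called higher (log2 0.66). miR-668 fell from 43.1, 47.7 and 52.8 RPM to 21.3, 29.2 and 25.7 RPM (log2 -0.92 ± 0.26 SE, limma adjusted p = 0.00371), which edgeR did not call (log2 -0.63). The hairpins of miR-381, miR-487b, miR-539 and miR-544 follow each other 17.8, 18.3, 19.1 and 20.3 kb from the start of the miR-379 hairpin, and neither arm of miR-539 was called. miR-668 lies at 25.7 kb, past miR-382 and miR-134, which both rose.

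**Figure D3:**
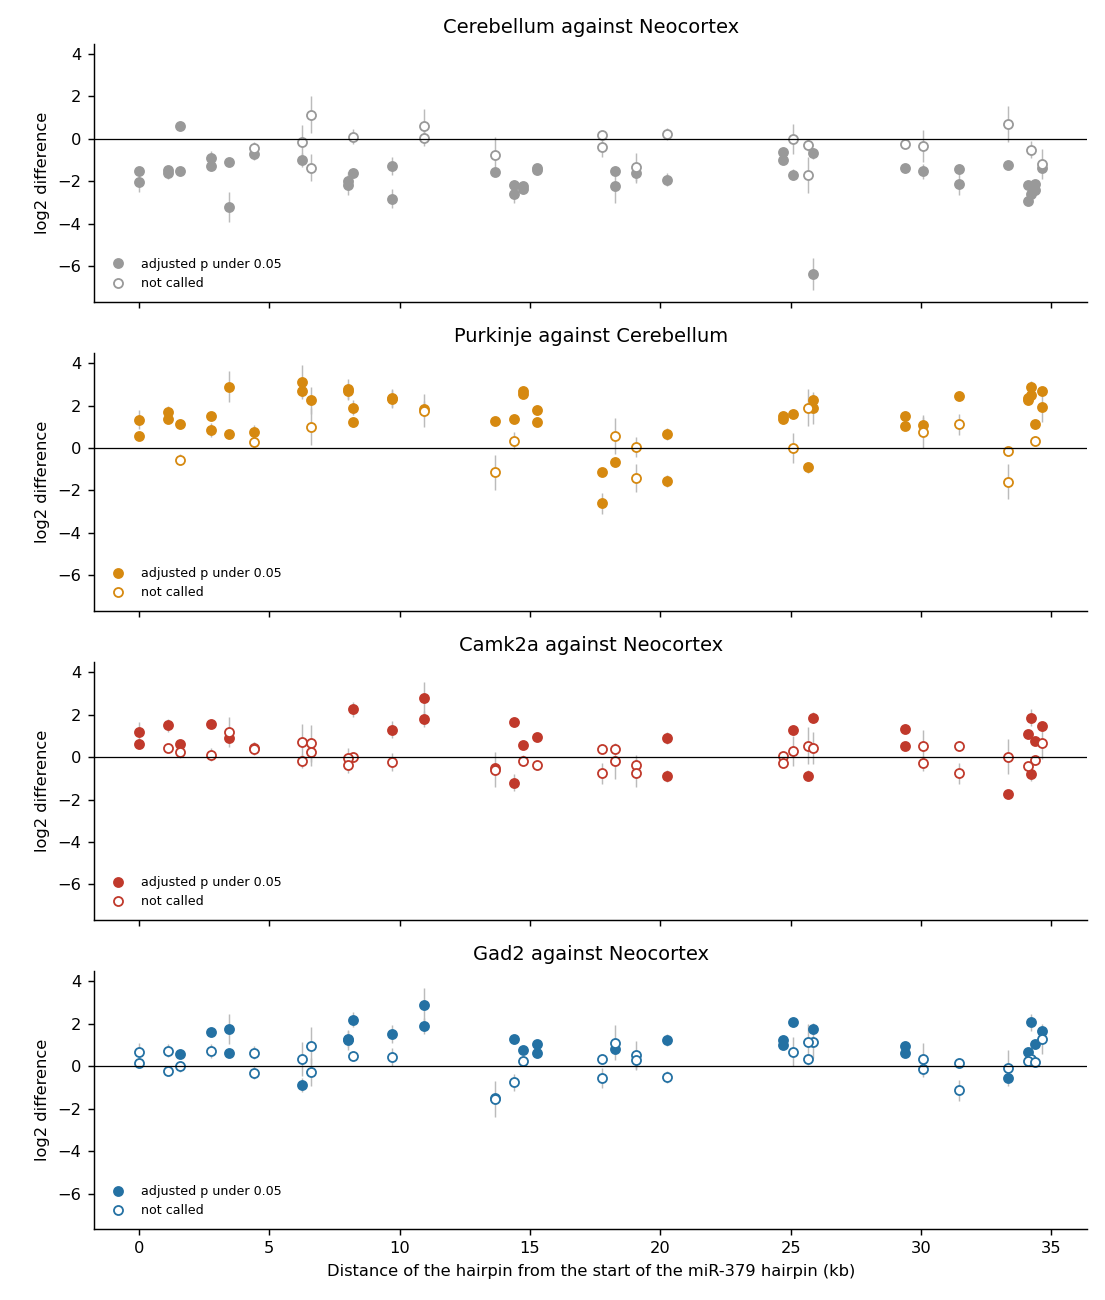
Fitted log2 difference of each member (points, with its standard error as a grey bar) against the distance of its hairpin from the start of the miR-379 hairpin in kb, for 4 comparisons; filled points passed a limma adjusted p under 0.05. Nearly all filled points lie below 0 for Cerebellum against Neocortex and above 0 for Purkinje against Cerebellum, where the exceptions sit between 17.8 and 25.7 kb.

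Camk2a neurons were compared with whole neocortex, from mice of the same strains and without pooling. In Camk2a 22 of the 64 members were higher and 6 lower, where 16.9% of all miRNAs were higher and 28% lower. With TMM scaling, which moved the median of all miRNAs from -0.25 to -0.04, 26 members were higher and 1 lower. Of the calls over all miRNAs 51.1% were higher with TMM, and 37.6% without it. The members' median log2 difference was 0.39, and 0.61 with TMM. Of the proximal miRNAs 9 of 27 were higher and 0 lower. The vascular and microglial lists were lower in Camk2a as given above, the astrocyte list higher, at 9077 to 11312 RPM against 4911 to 6600 in Neocortex, and their part was not tested. The astrocyte list was highest in Camk2a among all 7 groups, so its sums may not measure astrocytes alone.

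miR-543 rose most among members of at least 10 RPM, from 5.12, 8.30 and 13.0 RPM to 36.9, 37.9 and 43.0 RPM (log2 2.24 ± 0.36 SE, limma adjusted p = 4.45e-05). miR-376b rose 3.13-fold (log2 1.64 ± 0.22 SE, limma adjusted p = 7.75e-06), and miR-485* rose 3.60-fold, to 199.7, 181 and 206 RPM (log2 1.85 ± 0.26 SE, limma adjusted p = 8.03e-06). Its partner arm miR-485 stood at 80.4, 101 and 109 RPM and was not called (log2 0.44 ± 0.75 SE), although edgeR and DESeq2 called it higher (log2 0.75 and 0.69). The Camk2a libraries of miR-485 lay above those of Neocortex. Its SE comes from the shared fit of all 7 groups, in which a Cerebellum library held 0 reads of it. miR-380-3p rose from 50.3, 62.0 and 70.2 RPM to 156, 225 and 162 RPM (log2 1.57), miR-412-3p by log2 1.86 and miR-411* by log2 1.49. miR-541 fell 3.32-fold (log2 -1.73 ± 0.19 SE, limma adjusted p = 5.64e-07), and its 3 Camk2a libraries lay below all Neocortex libraries. It was the member that also fell with TMM scaling. The 5 other falls, of miR-376b*, miR-544-5p, miR-668, miR-412-5p and miR-376c, were between -1.20 and -0.49 on the log2 scale and lost their calls with TMM scaling. All 5 also lost them without 1 or more single libraries: Neocortex 3 for miR-668 (log2 -0.66), and for the others 3 to 5 of the 6 libraries (log2 -1.14 to -0.41). miR-376a itself rose by log2 0.57 (limma adjusted p = 0.019), a call lost without Neocortex 3 or Camk2a 2 (log2 0.45 and 0.42).

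Gad2 neurons were compared with the same Neocortex libraries, so that the values of this comparison and the last share them. In Gad2 26 of the 64 members were higher and 3 lower, where 20.7% of all miRNAs were higher and 24.3% lower. The median log2 difference was 0.62 over the members and -0.09 over all miRNAs, and 11 of the 27 proximal miRNAs were higher and 0 lower. Strain, pooling and antibody changed with the class in this comparison. The vascular and microglial lists were lower in Gad2 as given above, as was the astrocyte list, at 3153 to 3870 RPM against 4911 to 6600 in Neocortex, and their part was not tested.

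miR-134, the regulator of spine size, rose 4.16-fold, from 93.1, 90.0 and 62.0 RPM to 377, 375 and 265 RPM (log2 2.06 ± 0.24 SE, limma adjusted p = 6.32e-07). Its libraries were far apart, and SST overlapped Gad2, at 371 and 698 RPM. Its other arm, miR-134*, averaged under 1 RPM. miR-410 rose 3.18-fold (log2 1.67 ± 0.20 SE, limma adjusted p = 7.5e-07), miR-485* 3.40-fold and miR-543 4.57-fold, and miR-412-3p rose by log2 2.06. miR-485 was not called (log2 1.12 ± 0.75 SE, limma adjusted p = 0.241), though its Gad2 libraries lay above those of Neocortex. miR-323-5p rose by log2 1.76 (limma adjusted p = 0.0487), a call lost without any of 5 of the 6 libraries, all but Neocortex 1 (log2 1.58 to 1.95). Of the 3 falls, that of miR-376c was the firmest, from 961, 1259 and 1154 RPM to 330.1, 369 and 506 RPM (log2 -1.50 ± 0.19 SE, limma adjusted p = 1.99e-06). miR-494 fell by 0.87 on the log2 scale, lost without Neocortex 1 or 3 or Gad2 1 (log2 -0.78 to -0.73). miR-541 fell by 0.55, with overlapping libraries, and lost its call without Neocortex 2 or 3 or Gad2 1 or 2 (log2 -0.53 to -0.44). Both lost it with TMM scaling as well. miR-487b rose by log2 0.80, a call lost without Neocortex 1 (log2 0.56).

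Gad2 and Camk2a neurons, both precipitated through the Myc tag, were set against each other. Of the 64 members 10 were higher in Gad2 and 4 lower, where 21.5% of all miRNAs were higher and 16.7% lower. The split depended on the scaling. It was 7 higher and 11 lower under relative log expression factors, 10 and 10 with edgeR and 11 and 11 with DESeq2. Of the calls over all miRNAs 43.1%, 47.9% and 47.1% were higher in these runs, against 56.3% in the main fit. The members' split was 6 and 3 without Camk2a 1, and 7 and 2 without Gad2 2, where 54.4% and 56.9% of all calls were higher. Strain and pooling differed between the classes. The astrocyte list summed to 3153 to 3870 RPM in Gad2 and 9077 to 11312 in Camk2a, and the vascular list to 295 to 354 RPM and 934 to 993, and their part was not tested.

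miR-382 was 2.46-fold higher in Gad2 (log2 1.30 ± 0.20 SE, limma adjusted p = 4.02e-05), and its other arm miR-382* 2.23-fold, at 662, 779 and 890.0 RPM against 369, 283 and 394 RPM. miR-541 was 2.27-fold higher (log2 1.19 ± 0.19 SE, limma adjusted p = 6.26e-05). miR-668 stood at 101, 69.2 and 56.3 RPM in Gad2 and 27.3, 30.7 and 38.6 RPM in Camk2a (log2 1.20), and miR-666-3p at 16.9, 10.9 and 13.9 RPM and 2.81, 5.69 and 5.01 RPM (log2 1.64). miR-412-5p was higher by log2 1.16, lost without Camk2a 1 or Gad2 1 (log2 0.91 and 0.93), and miR-134 by log2 0.78, lost without Camk2a 1, Gad2 1 or Gad2 2 (log2 0.70 to 0.72), with TMM scaling (log2 0.69) and with relative log expression factors (log2 0.61). miR-376c was 2.01-fold lower in Gad2, at 330.1, 369 and 506 RPM against 824, 765 and 792 RPM (log2 -1.01 ± 0.19 SE, limma adjusted p = 0.000277). The other 3 lower members come from the first 2 hairpins of the cluster. miR-411 was 1.54-fold lower (log2 -0.63 ± 0.18 SE, limma adjusted p = 0.00987). miR-379 differed by log2 -0.49 and lost its call without Camk2a 2 or 3 or Gad2 2 or 3 (log2 -0.48 to -0.43). miR-411* differed by log2 -0.77, a call lost without any 1 of 5 libraries, all but Gad2 3 (log2 -0.88 to -0.49).

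PV and SST interneurons, 2 libraries each, came from mice of the same strains with the same pooling and antibody. In PV 14 of the 64 members were lower than in SST and 0 higher, where 25.1% of all miRNAs were lower and 4.02% higher. The median log2 difference was -0.49 over the members and -0.42 over all miRNAs. With TMM scaling 3 members were lower and 6 higher, and of the calls over all miRNAs 51.7% were higher. The median was then 0.11 over the members and 0.11 over all miRNAs, so the split rested on the scaling. Leaving out PV 1, PV 2, SST 1 or SST 2 gave 5, 9, 9 and 8 calls of members, all lower. Of the calls over all miRNAs 12.8% to 20% were higher in these runs. Markers of other cells also differed: the vascular list summed to 295 to 330 RPM in PV and 734 to 766 in SST, and the ependymal and choroid pair to 83.5 to 103 RPM and 361 to 369. Their part was not tested.

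The members that stayed lower in PV with TMM scaling were miR-381, miR-381* and miR-541. miR-381 was 3.38-fold lower (log2 -1.76 ± 0.19 SE, limma adjusted p = 3.12e-07), and with TMM its log2 difference was -1.12. miR-541 was 3.14-fold lower (log2 -1.65 ± 0.24 SE, limma adjusted p = 1.42e-05), and -1.01 with TMM. miR-381* stood at 2.23 and 4.20 RPM in PV and 18.0 and 13.0 RPM in SST (log2 -2.28 ± 0.59 SE, limma adjusted p = 0.00631), a call lost without PV 1 or SST 1 (log2 -1.84 and -2.05). miR-411, miR-379 and miR-487b were lower by 1.22, 1.11 and 0.94 on the log2 scale, and lost their calls with TMM (log2 -0.59, -0.47 and -0.30). miR-487b also lost it without PV 1 or SST 1 (log2 -0.55 and -0.89).

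Purkinje neurons and neocortical Gad2 neurons are GABAergic cells of different regions. In Purkinje 27 of the 64 members were lower than in Gad2 and 4 higher, where 34.5% of all miRNAs were lower and 20.5% higher. The members' median log2 difference was -0.64, against -0.31 over all miRNAs. The proximal miRNAs gave 7 of 27 higher and 5 lower. Strain, pooling and region changed with the class. The oligodendrocyte and blood lists were higher in Purkinje than in Gad2 (624 to 692 and 73.5 to 166 RPM in Gad2). The astrocyte list was lower, at 1673 to 1817 RPM against 3153 to 3870, and so was the ependymal and choroid pair, at 9.17 to 15.5 RPM against 74.7 to 89.5. Their part was not tested.

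miR-485 fell by 5.59 on the log2 scale (limma adjusted p = 2.07e-06), with 180.2, 146 and 138 RPM in Gad2 and 2.42, 2.40 and 5.03 RPM in Purkinje, which in the latter were 5, 6 and 17 reads. miR-487b was 7.90-fold lower (log2 -2.98 ± 0.23 SE, limma adjusted p = 6.82e-10), miR-544-5p 7.82-fold, miR-369-5p 4.82-fold and miR-134 4.37-fold. miR-134 stood at 65.9, 69.3 and 98.0 RPM in Purkinje, which overlapped Neocortex. miR-323-5p was lower by 2.07 on the log2 scale, a call lost without Gad2 1, Purkinje 1 or Purkinje 2 (log2 -1.92 to -1.88). The 4 higher members were miR-494 (5.98-fold, log2 2.58 ± 0.32 SE, limma adjusted p = 8.41e-07), miR-376c (2.33-fold), miR-377 (1.84-fold) and miR-494*. miR-376c stood at 857, 983 and 922 RPM in Purkinje, above every Gad2 library, and miR-377 at 936, 1003 and 754 RPM against 379, 458 and 650.3 RPM. miR-494* averaged under 1 RPM over the groups, and its call was lost without Gad2 3 (log2 2.02).

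The step from tissue to GABAergic class was also compared between regions, by testing in the same limma fit whether Purkinje minus Cerebellum differed from Gad2 minus Neocortex. These 2 differences share no library. They differed for 21 of the 64 members, a smaller share than the 45.8% of all miRNAs. For 3 members both steps were called and ran in opposite directions. Such cases were not counted over all miRNAs, so this number describes the members only. miR-494 rose in Purkinje (log2 2.71) and was lower in Gad2 (log2 -0.87), a difference of 3.58 ± 0.46 SE (limma adjusted p = 1.53e-06). miR-376c did likewise (log2 1.29 and -1.50, a difference of 2.79 ± 0.27 SE). miR-487b went the other way (log2 -0.66 and 0.80, a difference of -1.46 ± 0.32 SE). Single calls of miR-494 in Gad2 and of miR-487b in both steps were lost without single libraries, as given above.

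The 2 arms of a hairpin are cut from 1 transcript, so their ratio within a library does not depend on the library's total. Of the 32 hairpins 26 could be tested, having 20 or more reads over both arms in 2 libraries and, on average, 5 or more reads per arm. The ratio differed between groups in 18 of the 26, where 70.5% of the 156 hairpins tested in the whole table differed.

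The lowest adjusted p was that of miR-485, although group means spanned more in miR-544 (62.4 against 56.1 percentage points). Its 5p arm, miR-485, made up 57.3, 54.7 and 57.8% of the hairpin's reads in Neocortex, 28.7, 35.9 and 34.5% in Camk2a and 54.0, 40.4 and 42.1% in Gad2. In PV and SST it made up 47.5 and 51.7% and 49.2 and 67.5%. In Cerebellum it made up 4.92, 7.02 and 0% and in Purkinje 1.17, 1.22 and 4.35% (limma F test over the 7 groups, adjusted p = 9.99e-07). No cerebellar library came near a neocortical one. Purkinje held the 3p arm, miR-485*, at 206, 195 and 111 RPM, within the 106 to 216 RPM of the neocortical classes. All cerebellar libraries, and no others, came from C57BL/6 & black swiss mice, and strain and region cannot be told apart.

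In the miR-299 hairpin the arm listed as miR-299 made up 7.48% ± 0.892 (SD, n = 3) of the hairpin's reads in Cerebellum, 21.1% ± 6.62 in Purkinje, 26.5% ± 5.67 in Neocortex and 51.8% ± 1.75 (n = 2) in SST (limma adjusted p = 3.27e-06). miR-544 went the opposite way, with miR-544-3p at 12.04, 24.6 and 30.4% in Neocortex, 51.7, 49.3 and 62.1% in Cerebellum and 82.4, 84.4 and 87.4% in Purkinje (limma adjusted p = 1.35e-05). The Purkinje libraries lay above those of all other groups. miR-409-5p was lowest in Camk2a, at 7.20, 8.52 and 8.23%, below every library of the other groups. Its mean was highest in Cerebellum, at 29.4% ± 2.40, which overlapped Purkinje, at 28.0% ± 7.67 (SD, n = 3 each). miR-376b* stayed under 3% of its hairpin in every library, from 0.337% ± 0.0350 in Camk2a to 2.38% ± 0.200 in Neocortex (SD, n = 3). miR-380-5p ran from 4.94% ± 1.15 (SD, n = 2) in PV to 18.6% ± 4.43 (SD, n = 3) in Cerebellum. The other 12 called hairpins were miR-300, miR-543, miR-412, miR-154, miR-369, miR-411, miR-329, miR-323, miR-377, miR-379, miR-381 and miR-495.

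**Figure D4:**
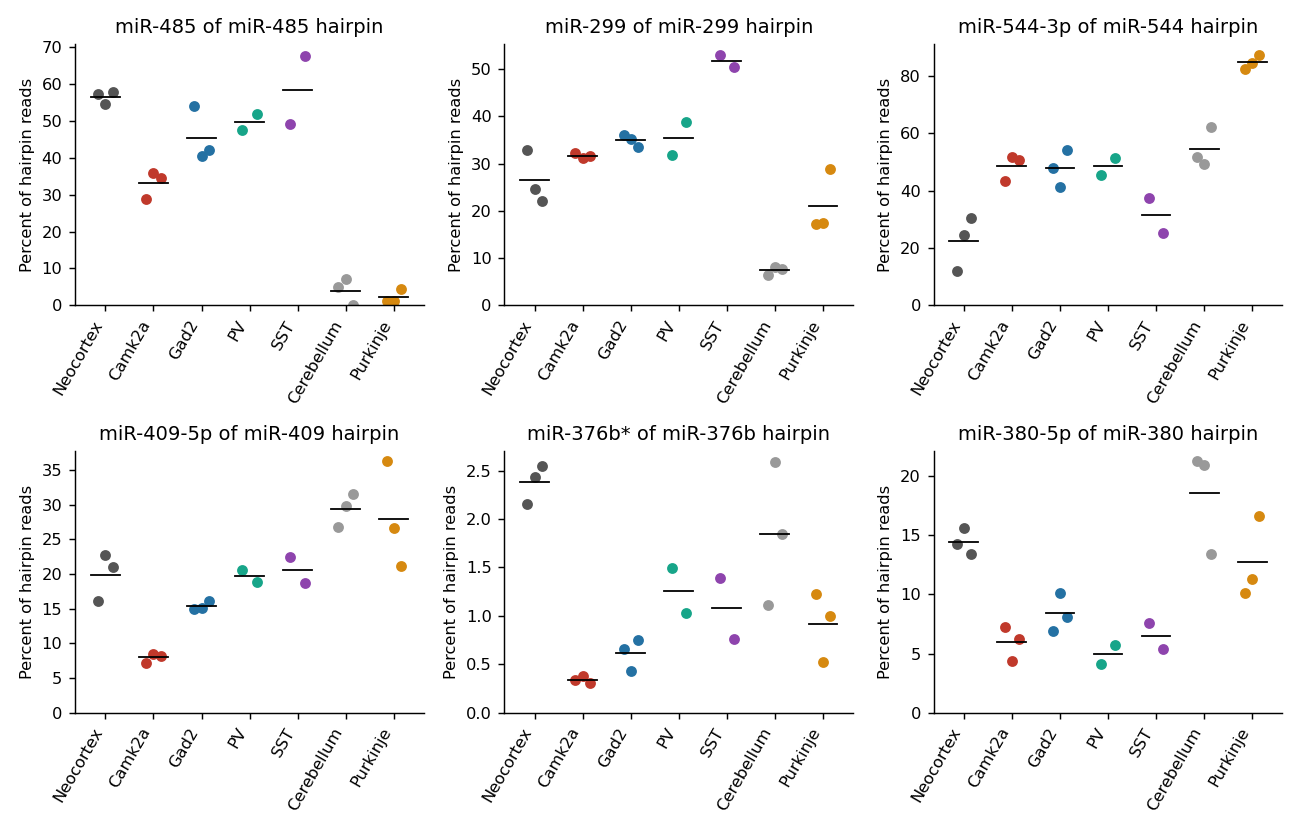
Percent of a hairpin's reads that came from its lesser arm in each library (points) by group, with the group mean as a line, for the 6 cluster hairpins of lowest adjusted p; each panel has its own axis from 0. For miR-485 all 6 cerebellar libraries lie at or below 7.02%, while the 13 neocortical libraries lie between 28.7% and 67.5%.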

How the data were processed

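Small RNA of 19 to 24 nt from Ago2 or Myc precipitates was sequenced on an Illumina Genome Analyzer II, per the labels' protocols, and mapped with Bowtie to mm9, per the submitters' processing notes. The deposited signal is each miRNA's read count scaled by the authors; per the file headers it is per 1000000 miRNA reads, but each of the 19 columns summed to 10000000; RPM here is the deposited value divided by 10. Values were whole multiples of 1 read in all 19 libraries, which gave the depth; floors of 3 reads cover counting error only. 120 blank rows were left out. Samples were grouped by title. limma 3.58.1 (R 4.3.3, trend, 1 fit of 7 group means) was run on log2(deposited value + 1), filtered at 1 or more in 2 libraries, with Benjamini-Hochberg adjustment over 522 miRNAs within each of 7 comparisons. Arm ratios used log2 of recovered reads plus 0.5 per arm. Methods were tested on simulated data.

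The members, though taken by their numbers and not by a measured value, and the lists were chosen with earlier results of these data known. Named members are the 12 most abundant; per comparison the called members of at least 10 RPM in the higher group with the 6 highest and 6 lowest log2 changes, and every called member against the majority; the arms of miR-134, miR-485 and miR-376; and, for arms, every called hairpin, 6 of them with values. The comparison of steps between regions was added after the values were seen. Alternatives included edgeR 4.0.16 and DESeq2 1.42.0 on recovered reads, other scalings, pseudocounts and filters, a replicate block and leaving out each library. Deviations of same-numbered libraries from their group means correlated weakly (correlations of -0.23 to 0.18).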

Additional observations from a re-analysis of the deposited data

Results flagged for a closer look

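For 5 of the 12 most abundant members the step from whole tissue to GABAergic class differed between cerebellum (Purkinje minus Cerebellum) and neocortex (Gad2 minus Neocortex), by a test of the difference itself in the limma fit, where 45.8% of all miRNAs differed. Among all 64 members 21 differed, and neither share is above that of all miRNAs. The difference in log2 change was 1.79 for miR-376a and 1.03 for miR-410, which rose in both steps and more in that to Purkinje. It was 1.58 for miR-411, which rose in Purkinje (log2 1.36) and was not called in Gad2 (log2 -0.22). It was -1.46 for miR-381 and -1.46 for miR-487b, which were lower in Purkinje than in whole cerebellum. Antibody and pooling changed with the class in both steps, and strain changed with it in the neocortical step, and their part was not tested. Single libraries were not tested for standing apart from their groups of 2 or 3.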

How the results depend on the processing

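Directions were followed for the named members of each comparison. In 6 of the 7 comparisons no alternative run turned the direction of a called one. The exception was PV against SST, where miR-300 moved from -0.49 to 0.15 (TMM), 0.043 (relative log expression) and 0.044 (DESeq2), and miR-154 from -0.53 to 0.11, 0.0026 and 0.0015, on the log2 scale. The summed share of PV against SST turned from -2.37 to 0.0362 percentage points with TMM. Its 14 called members became 9 with TMM, 7 with relative log expression factors, 8 with edgeR, 9 with DESeq2, and 5 to 9 with 1 library left out. For Gad2 against Camk2a 14 calls became 22 with DESeq2 and ranged from 9 to 14 without single libraries. Arm ratios were called for 18 of 26 hairpins, for 9 of 11 under a stricter read minimum, and for 15 to 19 without single libraries. The cause of these changes was not tested, apart from the smaller number of hairpins under the stricter minimum.

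Whether replicate numbers pair the libraries is not stated, and the weak correlations given above cannot decide it. A replicate block gave 43, 49, 26, 28, 13, 15 and 32 called members for Cerebellum against Neocortex, Purkinje against Cerebellum, Camk2a and Gad2 against Neocortex, Gad2 against Camk2a, PV against SST and Purkinje against Gad2, where the fit without it gave 44, 48, 28, 29, 14, 14 and 31. Of the values of named members under all alternatives, 2675 kept their call or lack of one, 154 lost the call and 58 gained one. Another 6 turned direction with a call in either run. Turns of direction with no call in either run are counted among the 2675. Members near the floor of 3 reads, such as miR-485 in cerebellum, have fitted changes that depend on the pseudocount.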

Other observations

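The ratio of summed reads of the distal cluster to those of the domain's proximal Meg3 and anti-Rtl1 miRNAs, which does not depend on library scaling, was noticed after the values were seen and is given without a test. It ran from 2.34 to 2.80 in the 3 Neocortex libraries, 3.31 to 3.98 in Camk2a, 2.65 to 3.12 in Gad2, 1.58 and 1.81 in PV, and 2.04 and 2.43 in SST. In cerebellum it ran from 1.89 to 2.13 in the whole tissue and 1.33 to 1.46 in Purkinje. Camk2a libraries were above, and Purkinje libraries below, those of every other group. The composition of the cluster's own reads varied too: miR-369-3p made up 14.1% to 20.9% of them in the Neocortex libraries, 19.6% to 22.9% in Camk2a and Gad2, 17.904% and 14.003% in PV, 8.69% and 11.4% in SST, 12.1% to 12.3% in Cerebellum and 7.74% to 11.2% in Purkinje.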
